A study of Conyza sumatrensis with 22 samples.

Results

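Among the 45437 gene models quantified in leaves of the annual weed Conyza sumatrensis, or Sumatran fleabane, 225 had at least 3 transcript models. Of these, 151 genes had a summed abundance averaging at least 1 TPM (TPM is transcript abundance scaled by transcript length and by the library total) over all 22 libraries, and they are described here with their 470 transcript models. The rule used the number of models and the mean over all libraries. The mean can still be carried by a few libraries: 10 members averaged under 1 TPM once the libraries of 1 population were left out, and 7 once those of 1 group were. For such a member a higher level in that population or group was part of what let it in, and its level there is a description. The other 74 genes with 3 or more models lay below the minimum. The lowest member averaged 1.02 TPM and the highest gene left out averaged 0.973 TPM.

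The study set a population resistant to the synthetic auxin herbicide 2,4-D, called R, beside sensitive populations called S and T. Leaves were taken 5 hours after 2,4-D was applied (R with 3 libraries, S with 4, T with 4) or before treatment (R with 4 libraries, S with 3, T with 4). The dose was 1005 g per hectare, given as active ingredient. All 6 groups are polyA RNA of leaf, and each population is given under 1 genotype letter. Treated and untreated leaves also differed in the time of sampling and no group had a mock treatment, so treatment, time and handling cannot be told apart. With a single resistant population, resistance and the other differences of R cannot be told apart either. Whether the libraries of a group are separate plants is not labelled, so a p-value reflects only how these libraries vary, which may be technical.

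A plant gene can give several transcripts when introns are spliced in different ways, or when transcription starts or ends at different places. Transcripts of a gene can encode proteins that differ at an end or lack an internal stretch, and some plant transcripts carry an early stop and are degraded. The proportions of a gene's transcripts can therefore change while the sum stays the same, and the sum can change while the proportions stay the same.

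Library depth was 19202180 to 24410906 estimated reads, of which the 151 genes held 0.4892% to 0.6995%. The median gene had 371 estimated counts per library. The files pair no identifier with a gene name, so genes are given by their identifiers, their functions are not described, and the tissue label was not checked against marker genes. The 470 listed lengths are all multiples of 3, so lengths below are coding lengths. Models of a gene often differed little in length: the gap between the longest and the shortest model had a median of 135 bases and ran from 3 to 3204 bases. Reads that fit several models were divided by estimate, and 93.0% to 97.7% of the genes' reads per library sat on non-whole transcript counts (tolerance 5e-04).

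Most of the 151 genes spread their abundance over more than 1 model. Of the genes, 137 had 3 models, 11 had 4 and 3 had 5. The main transcript, the one with the highest mean share of its gene's TPM over the 22 libraries, held a median of 64.9% (quartiles 52.2% and 84.9%, lowest 32.5%). It held at least 90% in 21 genes and under 50% in 34. The next transcript held a median of 26.3% and the smallest one 4.55%. All models exceeded 5% of their gene in 71 genes, and 1 model alone did so in 15. No read was assigned in any library to 30 of the 470 transcripts. The model numbered t1 was the main transcript in 61 genes. The main transcript was the longest model in 44 genes and the shortest in 65, so neither the number nor the length singled it out.

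**Figure D1:**
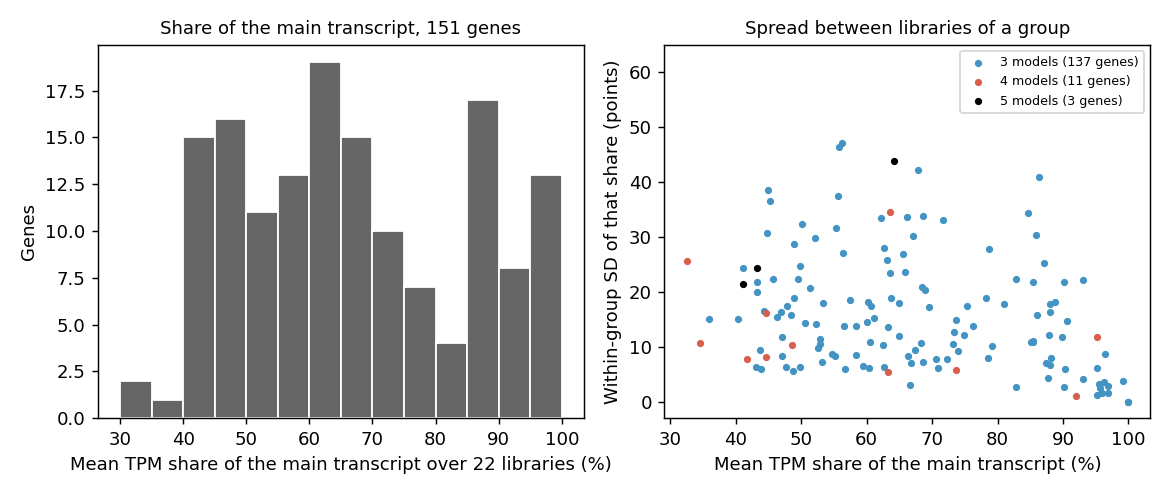
Left, number of the 151 genes by the mean TPM share (percent) of their main transcript over 22 libraries, in bins of 5 percentage points. Right, each gene's within-group SD of that share (points) against the mean share (percent), coloured by the number of models; 3 genes with too few libraries holding reads have no SD and are not drawn. Shares ran from 32.5% upward with a median of 64.9%, and the SD between libraries of a group had a median of 13.99 points.

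The gene with the highest summed abundance was g43920, at a mean of 162.8 TPM. Its reads lay on g43920.t3 (1290 bases) and g43920.t2 (1401 bases), with means of 60.4% and 39.6%, and none on g43920.t1 (1389 bases). The most even shares among genes of at least 10 TPM were those of g14447 (15.2 TPM), whose 4 models of 1419 to 1425 bases held means from 11.7% to 34.5%. The gene g24815 had 5 models, of which g24815.t2 had no reads. Its longest model, g24815.t3 (7599 bases), held a mean of 41.1%, and its shortest, g24815.t1 (6207 bases), held 28.6%.

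Libraries of the same group differed widely in these shares. The within-group SD of the main transcript's share had a median of 13.99 points and an upper quartile of 21.9 points. In 67 genes, a transcript lay under 5% in some library and over 50% in another library of the same group, which held for 125 transcripts. The same transcript was on top in all 22 libraries in 40 genes, or 26.5%. Among the 1200 genes with 2 models and the same TPM minimum that was so for 622, or 51.8%, and their main transcript held a median of 83.8%.

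To set whole libraries side by side, the share that had to move between transcripts to turn the profile of 1 library into that of another was averaged over the 128 genes with at least 20 counts in every library. Pairs of libraries of the same group differed by 14.7 to 22.4 points per gene, with a median of 17.8. Treated against untreated libraries of a population differed by medians of 19.2 points in R, 18.0 in S and 19.95 in T. Untreated R libraries differed from untreated S libraries by a median of 21.5 points and from untreated T libraries by 19.02, and untreated S from untreated T by 22.1. The medians among treated libraries were 22.6 points between R and S, 21.8 between R and T and 23.3 between S and T. All of these medians lay inside the range of same-group pairs except those of treated R against S and treated S against T, which lay above it. Pairs share libraries, so these medians are a description.

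**Figure D2:**
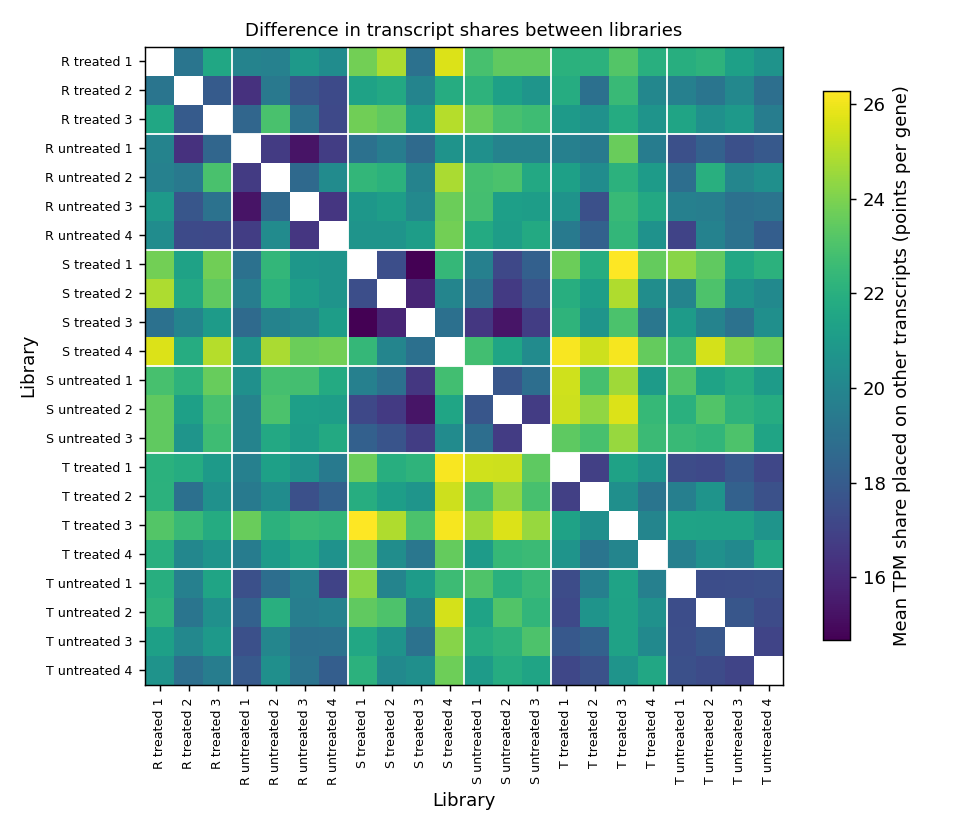
Mean TPM share (points per gene, colour) that lay on other transcripts in each pair of the 22 libraries, over 128 genes; rows and columns are libraries ordered by group, and white lines part the groups. Blocks that set S against R or T within a treatment are lighter than those of treated against untreated libraries of a population. Their medians were 21.5 to 23.3 points, against 18.0 to 19.95. The block of treated R against treated T had a median of 21.8 points, and that of untreated R against untreated T 19.02.

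After 2,4-D, no member had a transcript whose usage changed past the threshold in any population. Usage is the odds of a read falling on a transcript rather than on the other transcripts of its gene, tested for 385 transcripts of 142 members with edgeR's quasi-likelihood test and adjusted by Benjamini-Hochberg over 2374 transcripts of 1135 genes. The count was 0 of 142 in R, S and T, against 0.0% of the 1135 genes in each. At an unadjusted p under 0.05, 20 members had such a transcript in R, 14 in S and 21 in T, against 74, 54 and 62 of the 1135 genes. By transcript, these were 7.01%, 4.94% and 7.53% of the members' tested transcripts, against 5.69%, 4.17% and 4.68% of all 2374. The median size of the share difference over the members' tested transcripts was 4.77 points in R, 4.84 in S and 5.82 in T, and over all tested transcripts it was 4.96, 4.53 and 4.90. The median standard error of the log2 odds was 1.46 in R, 1.58 in S and 1.43 in T, so a moderate shift was not detectable in most genes. Large shifts could be missed too. In data simulated for the response of R over 1131 genes with 2 or more models, the test called 4 of 100 genes given a 4-fold change in odds. Of those given a 16-fold change it called 30 of 99. Simulated for untreated S against T, it called 5 of 100 and 22 of 99. The simulated spread came from observed log odds, which hold counting error, and counting error was then added again. These counts may therefore understate what the test can find, and they are not counts of members. Shares of treated and untreated libraries did not overlap for 33 of the 385 transcripts in R (8.57%, against 6.61% of all 2374), 20 in S (5.20%, against 5.48%) and 19 in T (4.94%, against 2.99%). Tests of whether the responses differed also gave 0 of 142 members and 0.0% of all genes for R against S, R against T and S against T. At an unadjusted p under 0.05 they gave 14, 16 and 13 members, against 57, 54 and 45 of the 1135 genes. By limma on log odds of counts, 1 member was called for the response of R, 0 for S and 0 for T, and by edgeR's diffSpliceDGE 1 for R, 2 for S and 0 for T. Limma on log odds of TPM called 1 for R, 0 for S and 0 for T. Leaving out 1 library raised a count of 0 to 1 in R (R treated replicate 3 or T untreated replicate 3), to 1 in S (S treated replicate 1 or 2) or 2 in S (S untreated replicate 2), and to 1 in T (S treated replicate 2, T treated replicate 1 or T untreated replicate 3). For the differences between responses it raised the count to 1 for R against S (R treated replicate 3 or S treated replicate 2) and for R against T (R treated replicate 3), and to 1 or 2 for S against T (S treated replicate 2, S untreated replicate 2).

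The smallest adjusted p among the members' responses belonged to g6113.t1 in T, a gene that the comparison of untreated populations also named. This model of 1791 bases held 78.8%, 78.5%, 85.1% and 83.6% of the gene in treated T libraries, against 34.3%, 30.2%, 60.6% and 54.0% in untreated T libraries. All 4 treated libraries lay above all untreated ones. The log2 odds were higher by 2.48 (SE 0.46), with an adjusted p of 0.0996 in edgeR's quasi-likelihood test. Without S treated replicate 2 or T untreated replicate 3 the adjusted p was 0.0229 or 0.0391. In R the same model held 64.3%, 56.3% and 67.8% in treated libraries and 55.8%, 39.3%, 43.5% and 34.6% in untreated ones. Those groups also did not overlap, and the log2 odds difference of 1.16 (SE 0.49) had an adjusted p of 0.799 by the same edgeR test. In S it held 92.4%, 76.4%, 92.1% and 88.9% in treated libraries, against 78.3%, 84.1% and 81.4% in untreated libraries, which overlap.

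In g31622, reads on a model appeared with a rise of the whole gene. The model g31622.t4 (5691 bases, 1 of 5 models) held 47.8%, 35.3% and 42.4% of the gene in treated R libraries and 0% in every library of the other 5 groups. Untreated R libraries held 333 estimated counts of the gene together, a depth at which 0 counts allow a share of up to 0.901%, in counting error only. Estimated division between models adds an error that was not measured. The adjusted p for the response of R was 0.795 by edgeR's quasi-likelihood test, 1.85e-06 by limma on log odds of counts and 0.0145 by limma on log odds of TPM. This transcript was chosen after its values were seen. The gene is a member through treated R alone, and t4 passed the count filter through those libraries alone. These p-values are therefore a description and add no support. Untreated R libraries placed all reads on g31622.t1 in 3 libraries and on g31622.t5 in the other.

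Between populations, transcript usage did differ. In untreated leaves, 7 of 142 members had a transcript past the threshold for R against S (4.93%, against 3.17% of the 1135 genes), 1 for R against T (0.704%, against 0.352%) and 13 for S against T (9.15%, against 4.85%). Among transcripts, 7 had a higher share and 4 a lower one in R than in S, 1 had a higher share in R than in T, and 10 had a higher and 7 a lower share in S than in T. The members' share lay above that of all genes in each of the 3 comparisons, a difference that was not tested. A gene is called when any 1 of its transcripts passes, and members had 385 tested transcripts in 142 genes, against 2374 in 1135. Counted by transcript, 13.5%, 7.53% and 13.8% of the members' transcripts had an unadjusted edgeR p under 0.05. Of all tested transcripts, 13.2%, 7.75% and 14.1% had one. Median sizes of the share difference did not stand out: over the members they were 6.61, 4.51 and 7.38 points for R against S, R against T and S against T, and over all tested transcripts 6.88, 4.85 and 7.59 points. Libraries did not overlap in share for 48 of 385 transcripts between R and S (12.5%, against 15.5% of all 2374), 29 between R and T (7.53%, against 6.95%) and 66 between S and T (17.1%, against 18.7%). Comparisons that involve the same population share its libraries. Leaving out 1 library lowered the count for R against S to 4 (R untreated replicate 3 or S untreated replicate 1) or 3 (S untreated replicate 3), raised that for R against T to 2 (T treated replicate 2), and lowered that for S against T to 6 (S untreated replicate 1). When only the libraries compared entered the fit, the 3 counts were 2, 1 and 9, and g36176.t2, g39921.t1 and g6113.t1 lost the call for R against S and g26932.t3 for S against T. By diffSpliceDGE the counts were 4, 0 and 4, by limma on log odds of counts 12, 5 and 17, and by limma on log odds of TPM 15, 5 and 17. Without a filter the count for R against S was 4.

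**Figure D3:**
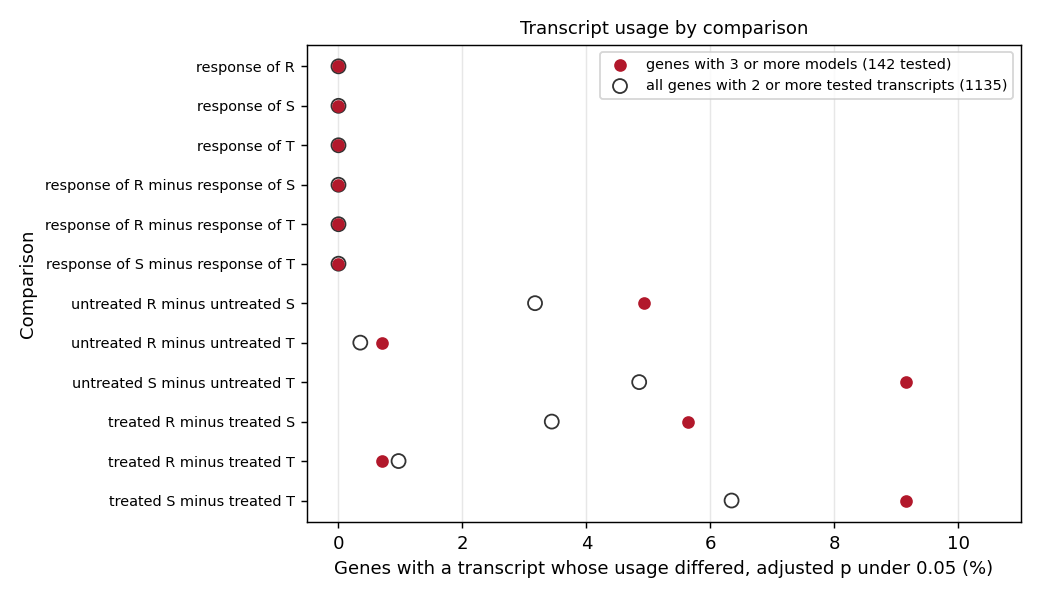
Percent of genes with at least 1 transcript whose usage differed (edgeR quasi-likelihood test, adjusted p under 0.05) in 12 comparisons; filled points are the 142 tested genes with 3 or more models and open points all 1135 tested genes. The responses to 2,4-D sit at 0 for both sets, and members reach 9.15% for S against T.

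The gene g22029 set T apart. Its short model g22029.t1 (1860 bases, against 4998 and 5064 for t2 and t3) held 97.4%, 98.8%, 97.2% and 98.6% in untreated R libraries and 96.8%, 99.1% and 99.1% in untreated S libraries, against 44.2%, 63.1%, 57.2% and 49.1% in untreated T libraries. No untreated T library came near those of R or S, and the rest of the T reads lay on g22029.t2 except for 0.334% on g22029.t3 in replicate 4. The log2 odds in R were higher than in T by 5.54 (SE 0.53; edgeR adjusted p 4.31e-06), and those in S were higher than in T by 5.94 (SE 0.59; edgeR adjusted p 4.08e-06). The gene's summed level was 61.6 ± 6.78 TPM in R, 79.0 ± 11.7 in S and 59.2 ± 5.59 in T (SD, n = 4, 3 and 4). The edgeR test of gene levels used CPM, counts per library total, which unlike TPM are not scaled by transcript length. On that scale untreated R was lower than untreated T (log2 difference -0.67, SE 0.16; edgeR adjusted p 0.00582) and than untreated S (log2 difference -0.46, SE 0.17; edgeR adjusted p 0.0415). Treated T libraries held 77.0%, 83.2%, 86.2% and 92.6% of g22029.t1, all above the untreated T libraries, and the adjusted p for that response was 0.155 by edgeR. In the treated T libraries the remainder lay on g22029.t2 in replicates 1 and 2 and on g22029.t3 in replicates 3 and 4.

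Untreated R and S leaves differed in g36176 and g24815 by a model with no reads in untreated S. The model g36176.t2 (1953 bases) held 80.0%, 63.2%, 58.4% and 79.3% in untreated R libraries, against 0% in all 3 untreated S libraries. Its edgeR adjusted p was 0.00952. The 249 counts of the gene in untreated S libraries allow a share of up to 1.205% for t2, in counting error only. This limit and those below leave out the error of dividing reads between models, which was not measured. Their reads lay on g36176.t3 (1956 bases) alone in replicates 2 and 3, and on t1 and t3 in replicate 1. Untreated T libraries held 80.1%, 60.4%, 85.0% and 76.9% of g36176.t2, overlapping those of R, and S against T had an edgeR adjusted p of 0.00568. In treated S libraries t2 held 84.8%, 0%, 75.6% and 63.3%. For that response of S the edgeR adjusted p was 0.971, and 0.00292 without S treated replicate 2, the library at 0%.

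The longest model of g24815, g24815.t3 (7599 bases), held 64.6%, 71.4%, 38.0% and 68.5% in untreated R libraries and 0% in the 3 untreated S libraries. There, 2999 counts of the gene allow a share of up to 0.10%, in counting error only. The model g24815.t5 is nearly as long, at 7596 bases. The edgeR adjusted p for R against S was 0.00869. Untreated T libraries held 75.4%, 57.8%, 23.0% and 33.6%, and the edgeR adjusted p for S against T was 0.00852. Untreated S libraries held 66.63%, 78.02% and 87.73% of g24815.t1, the shortest model, against 0% to 17.2% in untreated R libraries and 0% to 44.7% in untreated T libraries. For t1 neither comparison passed the threshold (edgeR adjusted p 0.0667 for R against S and 0.482 for S against T). Summed levels were 4.35 ± 0.46 TPM in R, 4.76 ± 0.93 in S and 6.02 ± 0.60 in T (SD, n = 4, 3 and 4).

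In g39921 the models of 2256 bases (t1) and 2253 bases (t2) changed places. Untreated R libraries held 26.3%, 12.2%, 34.4% and 25.6% of g39921.t1, against 74.9%, 70.4% and 85.5% in untreated S libraries, with no overlap. The log2 odds in R were lower by 3.49 (SE 0.86; log2 difference -3.49, edgeR adjusted p 0.0302). The model g39921.t2 held 0% in all 3 untreated S libraries, against 72.8%, 55.7%, 68.3% and 68.5% in untreated T libraries (edgeR adjusted p 0.0107 for S against T) and 39.95%, 69.6%, 65.6% and 64.6% in untreated R libraries. The model t2 was also called for R against S (edgeR adjusted p 0.0183), and t1 for S against T (edgeR adjusted p 0.00936). For t1 in R against S, the call was lost under 9 of 29 alternative settings. For t2 in S against T, it was lost under 0 of 29.

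Among called transcripts of genes with at least 1 TPM in both groups, the largest differences in favour of S over T were those of g26932.t3 and g11663.t2. The model g11663.t2 (2706 bases) held 73.3%, 63.3% and 53.6% in untreated S libraries and 0% in all 4 untreated T libraries, where 2355 counts of the gene allow up to 0.127%. The edgeR adjusted p was 0.0121. In untreated R it held 19.3% in replicate 4 and 0% in the other 3, and R against S had an edgeR adjusted p of 0.0724. Treated R and treated T libraries held no reads on it, so the model passed the count filter mainly through S. Its p-values are therefore a description and add no support. The model g26932.t3 (567 bases) held 50.3%, 70.9% and 84.2% in untreated S libraries and 0% in all untreated T libraries, with an edgeR adjusted p of 0.0311. That gene is scarce in T, with 38 counts over the 4 untreated libraries, which allow a share of up to 7.895%. The call was lost under 13 of 29 alternative settings. No R or T library held reads on g26932.t3, so it passed the count filter through S libraries alone. Its p-value too is a description and adds no support. The gene g26932 as a whole averaged 6.39 ± 0.58 TPM in untreated S and 1.95 ± 1.16 TPM in untreated T (SD, n = 3 and 4).

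**Figure D4:**
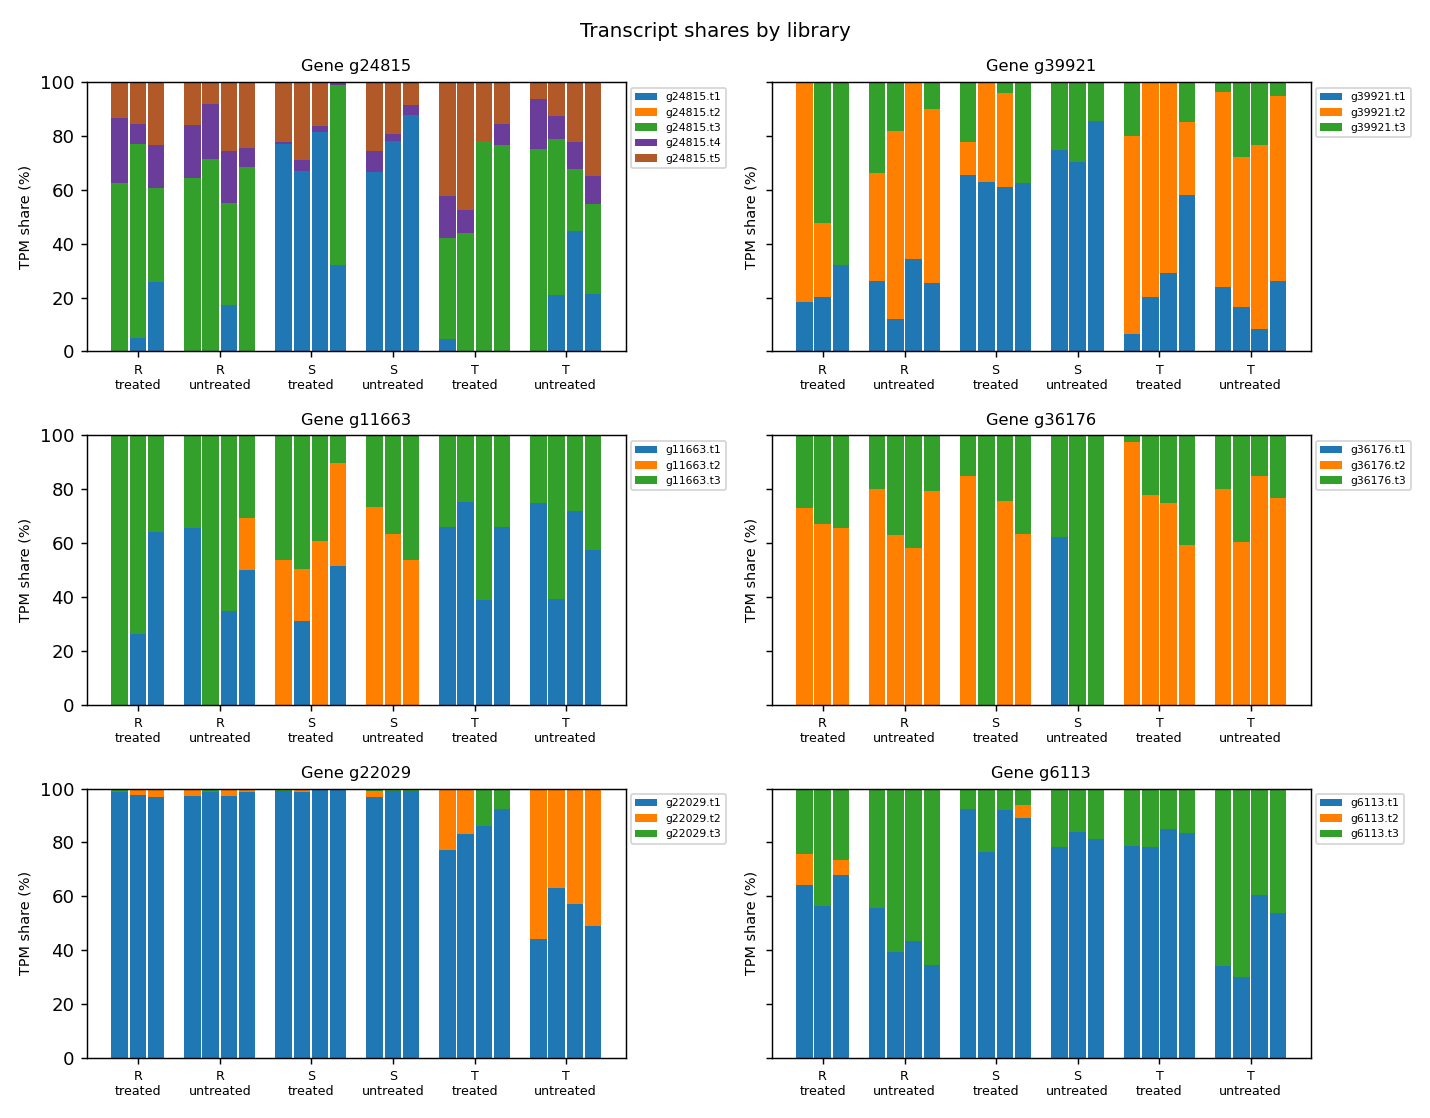
TPM share (percent) of each transcript, stacked to 100, in every library of 6 genes named for differences in usage between untreated populations; bars are libraries grouped by population and treatment. Untreated S libraries lie apart from untreated R and T libraries in g24815.t3, g39921.t2, g11663.t2 and g36176.t2, and untreated T libraries in g22029.t1, at 44.2% to 63.1%.

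The share of g6113.t1 was lower in R than in S. Untreated R libraries held 55.8%, 39.3%, 43.5% and 34.6%, against 78.3%, 84.1% and 81.4% in untreated S libraries, with no overlap. The log2 odds differed by -2.53 (SE 0.49; edgeR adjusted p 0.00833). The remainder lay on g6113.t3, a model of 3057 bases. Untreated T libraries, at 30.2% to 60.6%, overlapped those of R. In the most abundant gene, g43920.t2 held 32.5%, 31.8%, 36.3% and 32.0% in untreated R libraries, against 57.4%, 50.6% and 50.3% in untreated S libraries. The log2 odds differed by -1.17 (SE 0.31; edgeR adjusted p 0.0440), and this gene stands here for its abundance, not for the size of the difference.

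The same differences were then read in treated libraries. Their values were not the ones compared in the calls above, but all 22 libraries entered 1 fit, so treated libraries had a part in its dispersion and its filter. All 11 transcripts called between untreated R and S had the same sign between treated R and S, as had all 17 called between S and T and the 1 called between R and T. The 11 lay in 7 genes and the 17 in 13. Transcripts of a gene move against each other, so they are not separate agreements. No same-sign share of all tested transcripts stands beside these counts. The median share difference of the called transcripts was 15.3 points in treated against 38.0 points in untreated leaves for R against S, 18.9 against 36.5 points for S against T, and 13.0 against 44.6 points for R against T. The calls were made on the untreated values. Of these transcripts, 3 of 11, 8 of 17 and 1 of 1 also passed the threshold in treated leaves. In the other direction, 7 of the 8 transcripts called between treated R and S had the same sign in untreated leaves. So had all 16 called between S and T, which lay in 13 genes, and the 1 called between R and T. The exception was g9453.t2, with a log2 odds difference of 2.56 in treated leaves (edgeR adjusted p 0.0484) and -0.75 in untreated leaves (edgeR adjusted p 0.759). For g6113.t1 the log2 odds in treated R were lower than in treated S by 2.21 (difference -2.21, SE 0.50, edgeR adjusted p 0.0181). The model g22029.t1 remained higher in treated R than in treated T, by 2.96 (SE 0.55, edgeR adjusted p 0.0134). For g24815.t3, treated R libraries held 62.5%, 72.1% and 34.7%, against 0%, 0%, 0% and 67.1% in treated S libraries, with an edgeR adjusted p of 0.0508. In treated leaves as a whole, 8 members had a called transcript between R and S (5.63%, against 3.44% of the 1135 genes), 1 between R and T (0.704%, against 0.969%) and 13 between S and T (9.15%, against 6.34%). Shares did not overlap for 79 of 385 transcripts between R and S (20.5%, against 18.6% of all 2374), 39 between R and T (10.1%, against 10.6%) and 37 between S and T (9.61%, against 13.3%). Over all 6 comparisons of populations, 22 members and 29 of their transcripts were called at least once. The share of all tested genes called at least once was not taken, so this is not a trait of the members.

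The counts for treated leaves moved with single libraries. For R against S the count was 3 without R treated replicate 2, 4 without R treated replicate 1 or S treated replicate 3, and 5 without R treated replicate 3, R untreated replicate 1, S treated replicate 2 or T untreated replicate 3 or 4. For R against T it was 0 without R treated replicate 1, 3 without S untreated replicate 1, and 2 without R treated replicate 3, S untreated replicate 2, T treated replicate 1, 3 or 4, or T untreated replicate 3. For S against T it was 8 without S treated replicate 2 and 7 without S treated replicate 3. When only the libraries compared entered the fit, the 3 counts were 0, 0 and 4. By diffSpliceDGE they were 3, 1 and 5, by limma on log odds of counts 17, 4 and 22, and by limma on log odds of TPM 22, 5 and 23.

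The main transcript itself differed between groups in many genes, and rarely in every library. Going by mean share, treated and untreated leaves had different main transcripts in 31 of 151 genes in R (20.5%, against 9.84% of the 1351 genes with 2 or more models and the same TPM minimum), in 28 in S (18.5%, against 8.73%) and in 25 in T (16.6%, against 7.48%). Genes with 2 models gave 8.50%, 7.50% and 6.33%. No test was made of this count. In R, 1 of the 151 genes had another main transcript in every library, against 0.518% of the 1351 genes. In S and T none of the 151 did, against 0.0740% of the 1351 in each. The gene in R, g6970, was named after its values were seen. Its model t3 held 43.8%, 50.1% and 72.1% in treated R libraries, against 39.1%, 32.6%, 47.8% and 44.5% in untreated R libraries, where t1 held 52.2% to 62.5%. Treated and untreated values of t3 overlap, and in treated replicate 2 t3 exceeded t1 by 50.1% to 49.9% only.

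Between untreated populations the main transcript differed in 33 genes for R against S (21.9%, against 12.8% of the 1351 genes), 29 for R against T (19.2%, against 9.62%) and 42 for S against T (27.8%, against 13.2%). It did so in every library in 7, 0 and 5 of them, against 2.00%, 0.296% and 2.00% of the 1351 genes. Genes whose main transcript switched in every library between R and S included g24815 (t3 in R, t1 in S), g39921 (t2 in R, t1 in S), g43920 (t3 in R, t2 in S) and g14447 (t4 in R, t1 in S). The usage test did not call g14447.t1 between untreated R and S (edgeR adjusted p 0.124). Between treated populations the main transcript differed in 31 genes for R against S (20.5%, against 13.0%), 25 for R against T (16.6%, against 10.8%) and 37 for S against T (24.5%, against 12.8%), and in every library in 2, 0 and 1, against 1.85%, 0.962% and 1.33%. Over the 6 groups, 80 genes had the same main transcript throughout and 71 had more than 1.

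A short gene outside the usage test, g11302, also switched in every library, and was chosen after its values were seen. It had too few counts per transcript to be tested. Its model t3 (258 bases) held 80.3% to 100% in the 7 R libraries and 90.5% to 100% in the 8 T libraries. In S, t1 (417 bases) held 63.3%, 51.2%, 52.6% and 100% in treated libraries, and 100%, 55.5% and 100% in untreated libraries. No R library exceeded 2.41% and no T library 6.38% for t1.

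The summed level of some members changed after 2,4-D, in R and S in shares below those of all genes tested. Levels are CPM, counts scaled by the TMM-adjusted library total and not by length, and all 151 members were among the 22627 genes tested with edgeR's quasi-likelihood test. In R, 13 members rose and 8 fell (8.61% and 5.30%, against 9.37% and 7.03% of all genes tested). In S, 2 rose and 0 fell (1.33% and 0%, against 2.58% and 0.460%), with 24 members of either direction at an unadjusted p under 0.05. In T, 4 rose and 19 fell (2.65% and 12.6%, against 5.72% and 5.06%). The median log2 change of the members was -0.06 in R, -0.10 in S and -0.14 in T, and that of all genes tested was -0.03, -0.01 and -8.89e-04. In whole leaves, fewer cells of a type and less RNA per cell cannot be told apart. The total called in R was 11 without R treated replicate 1, in place of 21, and 4 when only the libraries compared entered the fit, where the totals were 0 in S and 26 in T. In T the total of 23 was 10 without T treated replicate 3 or T untreated replicate 3, and 11 without T treated replicate 4 or T untreated replicate 2 or 4. In S the total of 2 was 5 without S treated replicate 1, 4 without S treated replicate 3, 1 without S treated replicate 4 or S untreated replicate 1, and 0 without S untreated replicate 2 or 3, while DESeq2 called 10.

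Among called members with an average log2 CPM of at least 1, the largest rise in R was that of g31622. This gene is a member through treated R alone: its TPM was 8.07, 3.16 and 3.11 in treated R libraries and 0.245 to 0.66 in all other libraries, so its rise in R and the response differences below are built into its membership. It had 68.0, 22.3 and 23.1 CPM in treated R libraries, against 2.41, 5.24, 4.33 and 3.29 CPM in untreated R libraries. Every treated library lay above every untreated one, and replicate 1 far above the others. The log2 change was 3.31 (SE 0.41; edgeR adjusted p 3.09e-05). S and T libraries, treated or not, stayed between 2.24 and 7.32 CPM. The response of R exceeded that of S by 3.13 (SE 0.57; edgeR adjusted p 0.00747) and that of T by 2.58 (SE 0.55; edgeR adjusted p 0.0123) on the log2 scale. The gene g29035, chosen after its values were seen, lay under that minimum (average log2 CPM 0.82) and had a larger fitted rise. It had 91, 30 and 13 estimated counts in treated R libraries, against 6, 2, 3 and 5 in untreated R libraries, with no overlap (log2 change 3.68, SE 0.60; edgeR adjusted p 3.54e-04).

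The gene g28442 rose in R to 9.83, 7.93 and 5.72 CPM in treated libraries, against 3.64, 1.56, 1.97 and 2.48 CPM in untreated libraries, with no overlap. Its log2 change was 1.69 (SE 0.29; edgeR adjusted p 5.30e-04). T carried far more of it, at 23.5, 20.2, 17.5 and 16.6 CPM in treated and 30.0, 23.0, 23.8 and 17.6 CPM in untreated libraries, and S lay between 1.11 and 2.64 CPM. Untreated R was lower than untreated T by 3.29 on the log2 scale (log2 difference -3.29, SE 0.29; edgeR adjusted p 1.59e-07), and untreated S by 3.39 (log2 difference -3.39, SE 0.32; edgeR adjusted p 2.43e-07).

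Among the genes that fell in R, g4662 had 17.8, 18.3 and 18.2 CPM in treated libraries and 24.9, 40.1, 31.2 and 32.1 CPM in untreated libraries. The treated values were nearly equal and all lay below the untreated ones. Its log2 change was -0.82 (SE 0.16; edgeR adjusted p 0.00173). It did not change past the threshold in S or T, and the response of R lay below that of S by 0.82 (difference -0.82, edgeR adjusted p 0.0491) and below that of T by 0.92 (difference -0.92, edgeR adjusted p 0.0197). The gene g34248 had 5.86, 7.36 and 4.18 CPM in treated R libraries, against 8.47, 10.1, 10.01 and 9.66 CPM in untreated R libraries, with no overlap. Its log2 change of -0.72 (SE 0.21; edgeR adjusted p 0.0220) lost the call under 4 of 27 alternative settings.

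**Figure D5:**
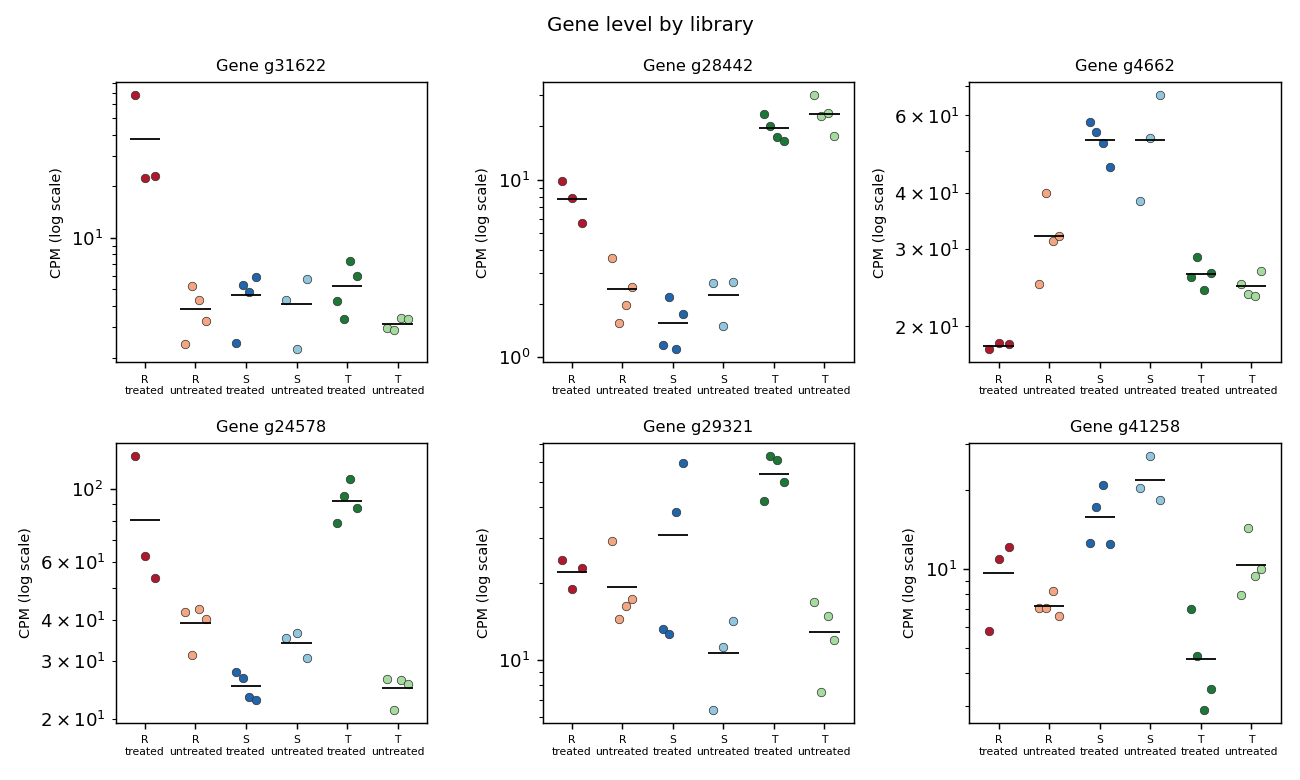
Summed level (CPM, log scale) of 6 genes in each library by population and treatment; points are libraries and bars group means. The gene g31622 rose in R libraries to between 22.3 and 68.0 CPM, and g24578 lay at 78.8 to 107 CPM in treated T libraries and 21.4 to 26.6 CPM in untreated T libraries.

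In T, g24578 rose to 78.8, 94.9, 107 and 87.3 CPM in treated libraries, against 26.6, 21.4, 26.3 and 25.7 CPM in untreated libraries. No library of the groups came near the other group, and the log2 change was 1.88 (SE 0.20; edgeR adjusted p 8.40e-06). The gene rose in R as well, to 126, 62.6 and 53.5 CPM in treated libraries against 42.2, 31.4, 43.3 and 40.2 CPM in untreated libraries (log2 change 1.04, SE 0.21; edgeR adjusted p 0.00192). In S it had 27.8, 26.7, 23.4 and 22.8 CPM in treated libraries and 35.3, 36.5 and 30.7 CPM in untreated libraries, a log2 difference of -0.44 with an edgeR adjusted p of 0.320. The response of S lay below that of T by 2.32 (difference -2.32, SE 0.29; edgeR adjusted p 0.00227), and that of R above that of S by 1.48 (SE 0.29; edgeR adjusted p 0.0115).

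The gene g29321 rose in T to 41.9, 63.2, 60.6 and 49.7 CPM in treated libraries, against 17.0, 7.51, 14.96 and 12.03 CPM in untreated libraries, with no overlap. Its log2 change was 2.06 (SE 0.41; edgeR adjusted p 0.00391). Treated S libraries split widely, at 13.3, 12.7, 38.1 and 59.5 CPM, against 6.39, 11.3 and 14.2 CPM in untreated S libraries (edgeR adjusted p 0.0721). Falls in T were smaller. For g41258 the treated T libraries had 7.04, 4.64, 2.89 and 3.48 CPM, against 7.91, 14.3, 9.35 and 9.93 CPM in untreated T libraries (log2 change -1.20, SE 0.28; edgeR adjusted p 0.0101). Those libraries do not overlap, and the response of R exceeded that of T by 1.61 (SE 0.40; edgeR adjusted p 0.0238). For g18826 treated T libraries had 4.11, 3.11, 2.29 and 2.86 CPM, against 6.08, 6.20, 4.91 and 9.42 CPM in untreated T libraries, without overlap (log2 change -1.10, SE 0.26; edgeR adjusted p 0.0107).

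Both genes that rose in S did so by calls that single libraries or settings removed. The gene g9309 had 7.29, 9.52, 10.5 and 27.1 CPM in treated S libraries, against 4.00, 4.58 and 4.53 CPM in untreated S libraries, without overlap (log2 change 1.63, SE 0.36; edgeR adjusted p 0.0126). Replicate 4 stood far above the other treated libraries. The call was lost under 5 of 27 alternative settings. The gene g38027 had 70.2, 80.9, 76.3 and 108 CPM in treated S libraries, against 59.4, 41.4 and 28.5 CPM in untreated S libraries, without overlap (log2 change 0.96, SE 0.25; edgeR adjusted p 0.0349), and lost the call under 4 of 27.

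Across the members, R responses were higher than S responses in 5 genes and lower in 2 (3.31% and 1.33%, against 1.97% and 1.64% of all genes tested). They were higher than T responses in 9 and lower in 4 (5.96% and 2.65%, against 3.94% and 4.53%). S responses were higher than T responses in 0 and lower in 1 (0% and 0.662%, against 0.0221% and 0.0309%). For that comparison 15 members had an unadjusted p under 0.05 by edgeR and 3 were called by DESeq2. Shares over all genes were not taken for the 15 and the 3, which are not read as a result. The 7 of R against S became 13 without R untreated replicate 1 and 4 without R untreated replicate 2 or 4 or S untreated replicate 1 or 2. The 13 of R against T became 26 without T treated replicate 1, 7 without R treated replicate 2 or 3 or T untreated replicate 3, 6 without R untreated replicate 2 or 4, T treated replicate 4 or T untreated replicate 4, 5 without T treated replicate 3, and 4 without T untreated replicate 2. When only the libraries compared entered the fit, the counts were 0 for R against S, 15 for R against T and 1 for S against T, and DESeq2 gave 14 and 29 for R against S and R against T.

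Between untreated populations, 27 members were higher and 27 lower in R than in S (17.9% each, against 16.6% and 14.1% of all genes tested). Between R and T, 10 were higher and 18 lower in R (6.62% and 11.9%, against 7.77% and 6.97%). Between S and T, 16 were higher and 32 lower in S (10.6% and 21.2%, against 15.0% and 16.9%). Both a level and a usage difference were called in 2, 1 and 5 members of these comparisons. No share over all genes stands beside these counts. The 1 between R and T was g22029, whose level call rests on CPM, which are not scaled by length. In TPM, its untreated R and untreated T libraries overlapped.

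The gene g44493 is a member through S alone, with 1.54 to 6.87 TPM in S libraries and 0 to 0.0371 TPM in all R and T libraries, so its difference between S and the others is built into its membership. It had 2 estimated counts over the 4 untreated R libraries, 464 over the 3 untreated S libraries and 0 over the 4 untreated T libraries. The S to R ratio per read was 328 (95% counting interval 90.4 to 2719), and S exceeded T at least 228-fold where the floor was 3 counts, taken over the whole group. In CPM, untreated S libraries had 12.4, 3.88 and 5.82, against 0 in all 4 untreated T libraries. Both calls held in all 27 alternative settings of each, which were edgeR and DESeq2 runs. Since the high level in S let the gene in, these settings add no support for the difference.

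Of the genes higher in R, g26584 had 10.4, 6.28, 7.17 and 7.09 CPM in untreated R libraries, against 1.98, 1.44 and 1.49 CPM in untreated S libraries (log2 difference 2.23, SE 0.33; edgeR adjusted p 3.75e-05). Untreated T libraries lay higher still, at 12.6 to 18.8 CPM, and S was lower than T by 3.14 on the log2 scale (difference -3.14, SE 0.34; edgeR adjusted p 9.19e-07). The gene g34461 had 11.8, 14.1, 15.6 and 13.9 CPM in untreated R libraries, against 2.76, 2.24 and 4.08 CPM in untreated S libraries (log2 difference 2.19, SE 0.26), and none of those libraries overlapped. Untreated T libraries lay at 8.72 to 10.9 CPM. R against T was not called (log2 difference 0.52, edgeR adjusted p 0.120), and S was lower than T (log2 difference -1.675, edgeR adjusted p 5.08e-05). Against T, g4145 was higher in R, at 4.05, 5.86, 4.14 and 5.62 CPM, against 2.10, 1.73, 1.37 and 1.93 CPM in untreated T libraries (log2 difference 1.46, SE 0.29; edgeR adjusted p 0.00168); without the R libraries this gene averaged under 1 TPM, so that difference too is part of its membership. The gene g22102 had 32.5, 19.7, 32.5 and 34.9 CPM in untreated R libraries, against 11.5, 12.1, 12.2 and 13.0 CPM in untreated T libraries (log2 difference 1.29, SE 0.22; edgeR adjusted p 3.90e-04). Both genes were without overlap between R and T.

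Of the genes lower in R, g16418 had 0.137, 0.363, 0.276 and 0.428 CPM in untreated R libraries, against 3.08, 4.83 and 2.94 CPM in untreated S libraries and 6.75, 5.78, 5.20 and 6.59 CPM in untreated T libraries. Every untreated R library lay below all S and T libraries. The log2 difference was -3.57 for R against S (SE 0.64; edgeR adjusted p 2.90e-04) and -4.32 for R against T (SE 0.62; edgeR adjusted p 7.11e-05). Without the T libraries g16418 averaged 0.997 TPM, just under the minimum, so its high level in T is part of its membership. In S, g31213 had 7.41, 13.8 and 14.9 CPM in untreated libraries, against 2.59, 3.78, 2.95 and 3.81 CPM in untreated T libraries (log2 difference 1.87, SE 0.28; edgeR adjusted p 5.42e-05), with no overlap.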

How the data were processed

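PolyA RNA of leaf was sequenced in 22 samples, grouped by the population, treatment and replicate number in their labels. Per the file headers, the deposited values are estimated counts per transcript model, TPM over effective length, and lengths; the submitters' processing notes name Trimmomatic and Salmon. Not given in the sources used here: tool versions, transcript set, build and strand. No batch is labelled.

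A gene was the identifier without its transcript suffix. Shares are a transcript's TPM over its gene's TPM. From the deposited estimated counts, rounded, edgeR 4.0.16 in R 4.3.3 compared each transcript with the rest of its gene (robust quasi-likelihood test, a term per library, transcripts averaging at least 5 counts, all 22 libraries, Benjamini-Hochberg over 2374 transcripts; called under 0.05). Gene levels used filterByExpr and TMM over 22627 genes. Scripts were tested on simulated data. Alternatives were limma 3.58.1, DESeq2 1.42.0, diffSpliceDGE, other filters and scalings (prior 0.5 counts, pseudocount 0.1 TPM), a replicate block and leaving out each library; the comparison of level responses between populations was added after seeing the data, as was g29035.

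Genes and lists were chosen with earlier results of these data known. Named per comparison were at most 2 genes in each direction: the largest share difference among called transcripts (at least 1 TPM in each group, libraries not overlapping) or the largest log2 change among called genes (average log2 CPM of at least 1, libraries not overlapping). The most abundant gene, the one with most models and the most even one of at least 10 TPM were also named. Marker lists matched no identifier and were not used. Intervals and limits for 0 counts (3 counts) cover counting error only.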

Additional observations from a re-analysis of the deposited data

Results flagged for a closer look

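Among 96 groups of 4 libraries of the named transcripts and genes, 10 held a library whose gap to the nearest other exceeded Dixon's critical value, and chance flags about 1 in 20 groups. Of shares, g11663.t2 stood at 19.3% in R untreated replicate 4, against 0% in the other 3. The share of g24815.t3 was 67.1% in S treated replicate 4, against 0% in the other 3, and that of g39921.t2 was 39.95% in R untreated replicate 1, against 64.6% to 69.6%.

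Of levels, g22102 had 19.7 CPM in R untreated replicate 2, against 32.5 to 34.9 CPM in the others. In T untreated replicate 2, g24578 had 21.4 CPM against 25.7 to 26.6 CPM, and g26584 had 18.8 CPM against 12.6 to 13.4 CPM. In S treated libraries, g34248 had 9.48 CPM in replicate 3 against 11.6 to 11.7 CPM, and g9309 had 27.1 CPM in replicate 4 against 7.29 to 10.5 CPM. The gene g44493 had 0.0788 CPM in R untreated replicate 3 and 0.104 CPM in T treated replicate 4, with 0 in the other libraries of each group.

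Responses of level differed between populations for 7 named genes by a test of the difference itself (edgeR quasi-likelihood test, Benjamini-Hochberg; log2 scale). The response of R lay above that of S by 2.22 for g28442 (adjusted p 0.00957), 3.13 for g31622 (0.00747) and 1.48 for g24578 (0.0115). It differed from that of S by -0.82 for g4662 (0.0491) and -1.16 for g34248 (0.0367). The response of R lay above that of T by 1.97 for g28442 (0.00880), 1.61 for g41258 (0.0238) and 2.58 for g31622 (0.0123), and differed from it by -0.92 for g4662 (0.0197) and -1.35 for g31213 (0.0410). The response of S differed from that of T by -2.32 for g24578 (0.00227). For g31622, a member through treated R alone, the differences are built into its membership. No cause of these values was tested.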

How the results depend on the processing

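No reported value reversed under any alternative run. Counts of members with a called usage difference moved by more than 1.5 times as follows, and their causes were not tested. Limma on log odds of counts gave 1 for the response of R, 1 for R against S and 1 for R against T responses, 12 and 5 for untreated R against S and R against T, and 17, 4 and 22 for treated R against S, R against T and S against T. Limma on log odds of TPM gave 1 for the response of R, 15 and 5 for untreated R against S and R against T, and 22, 5 and 23 for the treated comparisons. DiffSpliceDGE gave 1 for the response of R, 2 for that of S, 2 for R against T responses, 4, 0 and 4 for untreated R against S, R against T and S against T, and 3 and 5 for treated R against S and S against T. No filter gave 4 for untreated R against S and 7 for treated S against T. Fitting only the libraries compared gave 2 for untreated R against S, and 0, 0 and 4 for the treated comparisons. The replicate block gave 4 for treated R against S. Of the 7, 1 and 13 members called in untreated leaves, limma on counts also called 7, 1 and 13, limma on TPM 6, 1 and 13, and diffSpliceDGE 3, 0 and 4. Of the 8, 1 and 13 called in treated leaves they also called 8, 1 and 12, 8, 1 and 13, and 3, 0 and 3.

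Level counts moved likewise. Fitting only the libraries compared gave 4 for the response of R, 0 for that of S and 0 for R against S responses. DESeq2 gave 10 for the response of S, 14, 29 and 3 for the R against S, R against T and S against T responses. No filter gave 10 for the response of T and 7 for R against T responses. The replicate block gave 1 for the response of S, 4 for R against S and 7 for R against T responses. Same-numbered libraries did not deviate together (correlations of -0.559 to 0.077 for levels and -0.110 to 0.019 for usage over 10 pairs). That check cannot exclude that the numbers pair samples, and the labels do not say. The main fits did not pair them.

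Leaving out 1 library gave 0 to 1, 0 to 2 and 0 to 1 usage calls for the responses of R, S and T, and 0 to 1, 0 to 1 and 0 to 2 for R against S, R against T and S against T responses. It gave 3 to 8, 1 to 2 and 6 to 14 for the untreated and 3 to 8, 0 to 3 and 7 to 13 for the treated comparisons in the same order. Level calls ran from 11 to 26, 0 to 5 and 10 to 31 for the responses, 4 to 13, 4 to 26 and 1 to 1 for their differences, and 37 to 56, 20 to 30 and 40 to 50 between untreated populations. Genes with another main transcript numbered 26 to 32, 24 to 31 and 23 to 30 for the responses, and 31 to 38, 26 to 31 and 38 to 45 between untreated populations. Estimated division of reads between models, and 3 or 4 libraries a group, limit the precision of the shares.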
